A study of Mus musculus with 6 samples.

Results

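The transcripts described here are those by which group 2 innate lymphoid cells (ILC2s) of the lung receive and send neuronal signals. They comprise 9 genes chosen by name: the neuropeptide gene *Calca*, the peptide receptor genes *Calcrl*, *Ramp1*, *Ramp3*, *Nmur1* and *Vipr2*, the neurotransmitter enzyme genes *Tph1* and *Chat*, and the growth factor receptor gene *Ret*. Of these 9 genes, 8 were among the 16381 genes with a value and *Chat* was not. All 8 passed the filter for testing, as did 14419 genes in all. The cells were ILC2s sorted from lungs of wild-type BALB/cJ mice aged 6 to 8 weeks that had received intranasal IL-33 at 0.5 µg per day for 3 days, so both groups are activated ILC2s (aILC2s). In culture, 3 samples received 250 µM melatonin for 24 h, and 3 samples received DMSO, the solvent, as vehicle. A sort purity above 95% is stated for the gate, which took live CD45+ ST2+ CD127+ cells and left out those with lineage markers, among them CD3ε, CD11b and FcεRIα. The labels do not say whether the 3 samples of a group came from separate mice or cultures. By the sex-linked transcripts given below, melatonin replicate 1 did not come from the same mice as melatonin replicates 2 and 3. The p-values measure the spread between these samples, part of which may be technical.

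ILC2s lie close to nerves and neuroendocrine cells in the airway and carry receptors for peptides released there. Calcitonin gene-related peptide (CGRP) acts through calcitonin receptor-like receptor (CALCRL), which needs a receptor activity-modifying protein (RAMP) to reach the cell surface and to select its ligand. In mouse lung, neuromedin U through NMUR1 is known to activate ILC2s, whereas CGRP is known mainly for restraining their proliferation. Vasoactive intestinal peptide, serotonin, acetylcholine and the ligands of RET are further signals known to pass between nerves and ILC2s or to be made by ILC2s themselves.

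Estimated counts totalled between 17056267 and 20511700 per sample. Values are given as normalized counts, which are estimated counts divided by the size factor of the sample. Melatonin replicate 1 stood apart from melatonin replicates 2 and 3 on the second principal component, at 48.7 against -29.7 and -27.4, with vehicle samples between 1.15 and 3.99, and this component held 12.88% of the variance. The methods describe female mice, yet *Ddx3y*, which lies on the Y chromosome, had 746 to 907 normalized counts in the vehicle samples and 1071 in melatonin replicate 1, and none in melatonin replicates 2 and 3. The same samples divided in the opposite way for *Xist*, the RNA of the inactive X chromosome, at 0 to 13.6 normalized counts in those 4 samples and 579 and 1091 in the other 2. The melatonin group was therefore divided by these sex-linked transcripts. They also differed between the groups, since all vehicle samples but only melatonin replicate 1 had Y-linked ones. Donor sex was thus partly confounded with treatment in the comparison of all 6 samples. Calls lost with melatonin replicate 1 as the only melatonin sample, and for the 8 listed members also calls gained, are named below. The labels name no batch. All 14 ILC2 markers were listed, among them *Gata3*, the lineage transcription factor, at 17890 to 24588 normalized counts and *Il1rl1*, which encodes ST2, at 7698 to 16787. Of these 14 markers, *Il1rl1* and *Rora* were called higher with melatonin. Another 8 were called lower, namely *Il7r*, which encodes the gate marker CD127 (log2 fold change -1.06), *Thy1* (-2.88), *Il13* (-2.22), *Klrg1* (-2.16), *Areg* (-1.69), *Id2* (-0.85), *Il2ra* (-0.77) and *Il5* (-0.75). Over all tested genes, 24.5% were called higher and 24.7% lower.

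Promoter sequences are shown for *Calca* and *Tph1*, a ligand gene and an enzyme gene called higher with melatonin. For the other member with a call in that direction, *Ret*, no sequence is given. Sequences come from the RefSeq promoter table (build GRCm38.p6), which held 10 entries for 8 of the 9 members. Each 250-base stretch before the start site was found once in GRCm39, and the GRCm39 positions are given. Runs read 5′ to 3′ on the minus strand, and capitals mark a match to TGACNNNGC, the core of the antioxidant response element.
Calca, chr7:114235593-114235842, minus strand: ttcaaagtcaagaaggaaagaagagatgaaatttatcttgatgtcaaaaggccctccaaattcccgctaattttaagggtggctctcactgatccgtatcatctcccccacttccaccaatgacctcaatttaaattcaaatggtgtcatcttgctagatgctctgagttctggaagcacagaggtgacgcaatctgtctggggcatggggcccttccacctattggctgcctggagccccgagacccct
Tph1, upstream start, chr7:46321962-46322211, minus strand: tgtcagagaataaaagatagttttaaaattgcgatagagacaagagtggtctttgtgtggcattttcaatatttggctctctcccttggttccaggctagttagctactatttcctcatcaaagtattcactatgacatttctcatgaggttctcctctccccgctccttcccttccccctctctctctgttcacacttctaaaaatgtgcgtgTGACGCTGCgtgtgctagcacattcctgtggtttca
Tph1, downstream start, chr7:46316802-46317051, minus strand: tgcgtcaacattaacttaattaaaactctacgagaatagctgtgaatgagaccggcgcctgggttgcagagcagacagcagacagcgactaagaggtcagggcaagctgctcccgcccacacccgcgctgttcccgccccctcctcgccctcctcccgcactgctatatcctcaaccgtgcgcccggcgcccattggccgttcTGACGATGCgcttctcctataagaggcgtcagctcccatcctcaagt
Both *Tph1* windows held the core, at position -36 as TGACGCTGC and at position -47 as TGACGATGC, counted from the start site. The *Calca* window, which ends at the annotated start of the gene, held none of the 3 motifs searched on both strands. These were TGACNNNGC, the cyclic AMP response element TGACGTCA and the E-box CACGTG, found in 10.2%, 1.55% and 6.02% of 32851 promoters of the same length. *Chat* held an E-box at position -98, and the windows of *Calcrl*, *Ramp1*, *Ramp3*, *Nmur1* and *Vipr2* held no match. A match describes letters in the window and not a binding site.

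Melatonin-treated aILC2s had higher transcript levels of *Calca*, *Ret* and *Tph1* and a lower level of *Nmur1*, whereas *Calcrl*, *Ramp1*, *Ramp3* and *Vipr2* were not called. *Calca* rose 9.32-fold and *Ret* rose 12.5-fold, and both were called with a log2 fold change above 1, as were 6.01% of tested genes. No member was called with a fall of that size, while 9.65% of tested genes were. The *Tph1* and *Nmur1* changes were much smaller, at 1.36-fold and 0.744-fold. Thus 3 of 8 members were called higher, where 24.5% of all tested genes were, and 1 of 8 was called lower, where 24.7% were. Both shares are therefore read against a comparison in which 49.2% of all genes tested were called. In 4 members all melatonin samples lay above all vehicle samples, as in 30% of tested genes. In 1 member, *Nmur1*, all lay below, as in 30.3% of tested genes. The median log2 fold change was 0.25 over the 8 members and -0.0046 over all genes tested. The size of the *Calca* and *Ret* changes was uncommon in the table: 0.187% of tested genes had a higher log2 fold change than *Calca* and 0.0763% a higher one than *Ret*. For *Tph1* and *Vipr2* these shares were 23.4% and 18.8%, and 27.7% of tested genes had a lower log2 fold change than *Nmur1*.

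**Figure D1:**
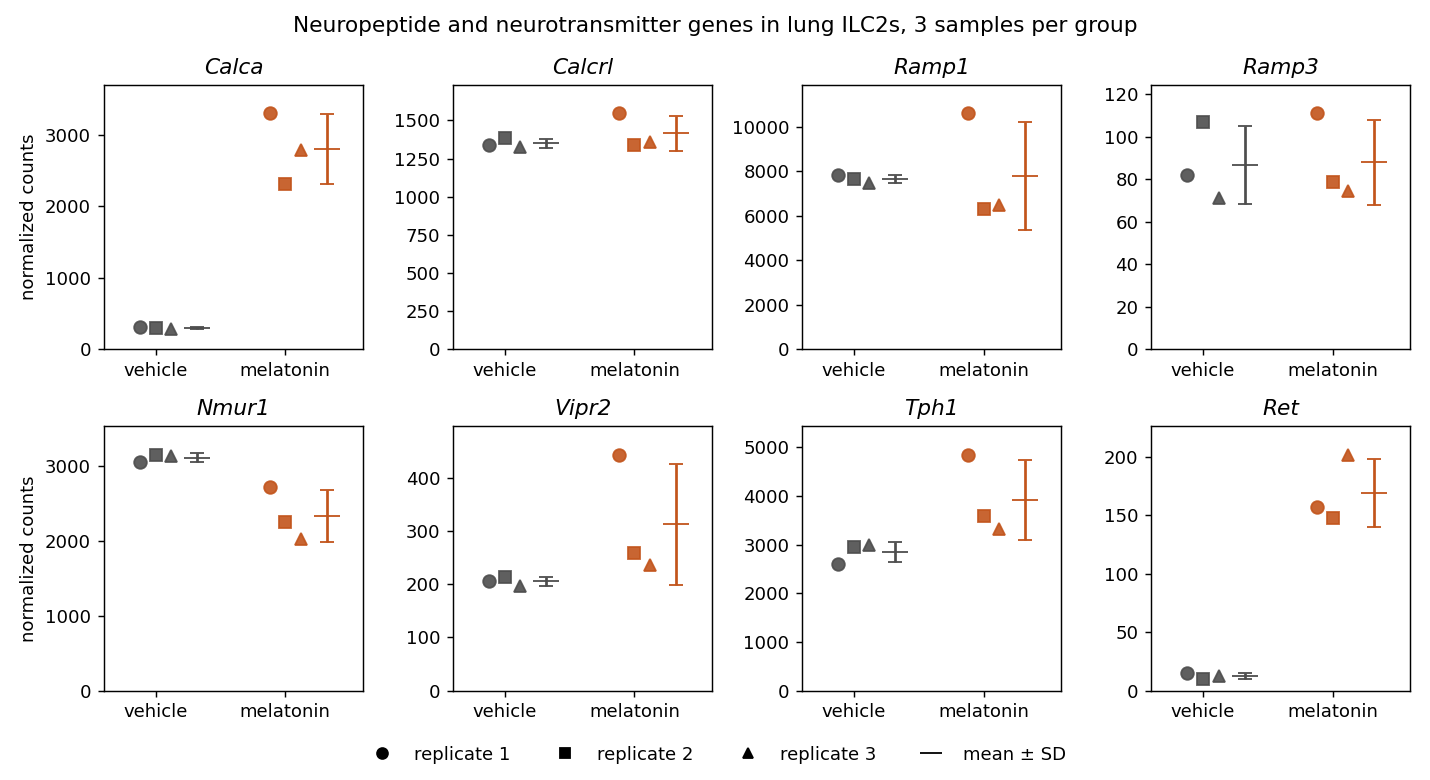
Normalized counts (vertical axes, each from 0) of the 8 listed members in 3 vehicle and 3 melatonin samples, with 1 point per sample and the mean ± SD beside them. *Calca* and *Ret* separate widely between the groups, and the first melatonin replicate (circle) is the highest melatonin value in 7 of the 8 panels.

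*Calca* encodes calcitonin and, by alternative splicing, α-CGRP, so a value per gene cannot tell these products apart. The gene (ENSMUSG00000030669) lies at chr7:114230712-114235592 of GRCm39 on the minus strand and has 5 exons in its canonical transcript. It had 311, 293 and 286 normalized counts in vehicle replicates 1, 2 and 3. In melatonin replicates 1, 2 and 3 it had 3298, 2316 and 2792 normalized counts. Every melatonin sample was far above every vehicle sample, and even the lowest of them was 7.80 times the vehicle mean. The means were 297 ± 12.6 and 2802 ± 491 (SD, n = 3 per group). The log2 fold change was 3.22 with a standard error of 0.13 (95% interval 2.93 to 3.51, limma adjusted p = 2.0e-06). Leaving out each of the 6 samples in turn gave estimates from 3.10 to 3.35, each called.

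As *Calca* is also a transcript of pulmonary neuroendocrine cells and sensory neurons, markers of such cells were examined beside it. Of 9 markers, 6 were listed, and *Snap25* and *Elavl4* were among those not listed. *Syp*, *Uchl1* and *Chga* were called higher, as 24.5% of all tested genes were, and *Chga* passed the filter only through a melatonin sample. The sum of the listed markers ranged from 207 to 242 normalized counts in vehicle and from 434 to 489 in melatonin samples. Most of the rise was in *Syp*, a synaptic vesicle protein gene, at 37.3 to 41.4 against 167 to 216 normalized counts, and in *Uchl1*, at 147 to 170 against 209 to 258. *Chga*, which encodes chromogranin A, had 0 to 1.05 normalized counts in vehicle and 3.02 to 16.4 in melatonin samples. The sort gate required CD45, which such cells lack. A transcript of alveolar epithelium, whose cells also lack CD45, was still present. This was *Sftpc*, at 122 to 389 normalized counts in vehicle and 3.02 to 6.54 in melatonin samples. The part of neuroendocrine cells and neurons in the *Calca* values was not tested. In bulk samples, a change in the number of cells of a type and a change in RNA per cell cannot be told apart.

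The genes for the CGRP receptor were not called. *Calcrl*, which encodes the ligand-binding core (ENSMUSG00000059588, chr2:84160957-84255755, minus strand), had 1338, 1383 and 1328 normalized counts in vehicle replicates 1, 2 and 3. It had 1547, 1339 and 1360 in melatonin replicates 1, 2 and 3. The groups overlapped, and melatonin replicate 1 was the highest of the 6 samples. The log2 fold change was 0.07 with a standard error of 0.09 (95% interval -0.13 to 0.26, limma adjusted p = 0.549), an interval that spans 0.915-fold to 1.20-fold.

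*Ramp1* encodes the partner that makes CALCRL a CGRP receptor (ENSMUSG00000034353, chr1:91107540-91152918, plus strand). Vehicle replicates 1, 2 and 3 were close together at 7820, 7634 and 7468 normalized counts. Melatonin replicate 1 had 10599 normalized counts, above all vehicle samples, while melatonin replicates 2 and 3 had 6323 and 6486, below all vehicle samples. The means therefore nearly coincided, at 7641 ± 176 and 7803 ± 2423 (SD, n = 3 per group), and the log2 fold change was -0.01 with a standard error of 0.18 (95% interval -0.41 to 0.39, limma adjusted p = 0.959). Without melatonin replicate 1 the estimate was -0.25 and *Ramp1* was called lower (adjusted p = 0.0067). With melatonin replicate 1 as the only melatonin sample, which leaves the libraries with Y-linked transcripts, the estimate was 0.47 and *Ramp1* was called higher (adjusted p = 0.0018). That last fit assumes that the lone melatonin sample varies like the vehicle samples. The direction of *Ramp1* with melatonin was thus not the same in all 3 melatonin samples.

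*Ramp3* encodes the partner that, with CALCRL, forms a receptor for adrenomedullin (ENSMUSG00000041046, chr11:6608511-6627475, plus strand). It had 82.1, 107 and 71.3 normalized counts in vehicle replicates 1, 2 and 3 and 111, 78.7 and 74.4 in melatonin replicates 1, 2 and 3. The 2 groups covered nearly the same range. The log2 fold change was 0.02 with a standard error of 0.23 (95% interval -0.51 to 0.55, limma adjusted p = 0.954). At 68.0 to 119 estimated counts per sample this was a wide interval, and changes up to 1.46-fold upward or 0.701-fold downward lie within it.

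Since the RAMP present determines which peptide CALCRL binds, the receptor genes were also set against each other per kilobase of canonical transcript. Per kilobase, *Ramp1* exceeded *Calcrl* 10.5 ± 0.305-fold in vehicle samples (SD, n = 3), with values of 10.8, 10.2 and 10.4. In melatonin replicates 1, 2 and 3 this ratio was 12.7, 8.76 and 8.85. The groups overlapped, with a two-sided exact permutation p of 0.8. *Ramp3* per kilobase was 0.252 ± 0.0471 of *Calcrl* in vehicle and 0.243 ± 0.0352 in melatonin samples (exact permutation p = 0.8). Thus *Ramp1* was the predominant listed partner per transcript length in every sample of both groups. Among the tests for single values, the exact permutation test of 3 against 3 samples cannot give a p below 0.1. Endothelial cells also carry *Calcrl*, and of 7 endothelial markers *Cdh5*, *Cldn5*, *Kdr*, *Tek* and *Emcn* were not listed and *Vwf* had 0 to 7.34 normalized counts. *Pecam1*, which leukocytes also express, made up nearly all of the marker sum, which was 1008 to 1069 in vehicle and 310.0 to 416 in melatonin samples. Endothelial cells lack CD45, which the sort gate required, but the gate did not keep out all RNA of cells without CD45, such as *Sftpc*. The part of endothelial cells in the *Calcrl* values was not tested.

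*Ret* encodes the receptor tyrosine kinase for the glial cell line-derived neurotrophic factor (GDNF) family, which signals together with GFRα co-receptors. The gene (ENSMUSG00000030110, chr6:118128706-118174769, minus strand, 19 exons) was barely detected in vehicle samples, at 14.9, 10.3 and 12.6 normalized counts in replicates 1, 2 and 3. In melatonin replicates 1, 2 and 3 it had 157, 147 and 202 normalized counts. The groups lay far apart, and unlike the other listed members *Ret* was highest in melatonin replicate 3 among the melatonin samples. The means were 12.6 ± 2.31 and 169 ± 29.2 (SD, n = 3 per group). The log2 fold change was 3.64 with a standard error of 0.25 (95% interval 3.08 to 4.20, limma adjusted p = 2.8e-05). It stayed between 3.51 and 3.76 when each sample was left out in turn, with a call each time. The vehicle values rest on 11 to 16 estimated counts per sample, so the size of the fold change is known less closely than its direction, and it spans 8.45-fold to 18.4-fold. Per kilobase, *Ret* remained the least abundant listed member in both groups.

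*Nmur1* encodes the neuromedin U receptor of ILC2s (ENSMUSG00000026237, chr1:86313284-86353950, minus strand). It had 3047, 3150 and 3134 normalized counts in vehicle replicates 1, 2 and 3. It had 2713, 2248 and 2030 in melatonin replicates 1, 2 and 3. All melatonin samples were below all vehicle samples, the nearest being melatonin replicate 1. The means were 3110 ± 55.7 and 2330 ± 349 (SD, n = 3 per group), and the log2 fold change was -0.43 with a standard error of 0.11 (95% interval -0.67 to -0.19, limma adjusted p = 0.010). *Nmur1* was called in each of the 6 fits without 1 sample, with estimates from -0.54 to -0.33. The call was lost after a correction for transcript length, where the estimate was -0.24 (adjusted p = 0.144). With melatonin replicate 1 as the only melatonin sample it was -0.20 (adjusted p = 0.049). None of the 6 *Nmur1* values was a whole number of reads at a tolerance of 0.01, as the authors' algorithm divides shared reads among features. The departures were small beside the level, as in 3263.94 estimated counts in vehicle replicate 1 and 2058.03 in melatonin replicate 2.

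*Vipr2* encodes VPAC2, a receptor for vasoactive intestinal peptide (ENSMUSG00000011171, chr12:116041346-116109883, plus strand). It had 206, 213 and 196 normalized counts in vehicle replicates 1, 2 and 3. It had 444, 258 and 235 in melatonin replicates 1, 2 and 3. Although the groups did not overlap, melatonin replicate 1 was well above the other melatonin samples, and the means were 205 ± 8.31 and 312 ± 114 (SD, n = 3 per group). The log2 fold change was 0.55 with a standard error of 0.22 (95% interval 0.04 to 1.05), and *Vipr2* was not called (limma adjusted p = 0.069). It was called without melatonin replicate 3, at 0.72 (adjusted p = 0.032), and with melatonin replicate 1 as the only melatonin sample, at 1.11 (adjusted p = 0.0018). Without melatonin replicate 1 the estimate was 0.26 and was not called.

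*Tph1* encodes tryptophan hydroxylase 1, which catalyses the rate-limiting step of serotonin synthesis outside the brain (ENSMUSG00000040046, chr7:46294065-46321965, minus strand). It had 2608, 2951 and 2989 normalized counts in vehicle replicates 1, 2 and 3. It had 4850, 3588 and 3314 in melatonin replicates 1, 2 and 3. All melatonin samples were above all vehicle samples, with melatonin replicate 1 the highest. The means were 2850 ± 210.1 and 3918 ± 819 (SD, n = 3 per group), and the log2 fold change was 0.44 with a standard error of 0.14 (95% interval 0.13 to 0.75, limma adjusted p = 0.025). The call was held less firmly than those of *Calca* and *Ret*. It was lost without vehicle replicate 1 (0.38, adjusted p = 0.086), without vehicle replicate 2 (0.47, adjusted p = 0.060) and without vehicle replicate 3 (0.48, adjusted p = 0.056). It was also lost in 4 of the other alternative fits, and the estimate kept its sign in all 20 alternative fits. With melatonin replicate 1 as the only melatonin sample it was 0.77 (adjusted p = 0.0018).

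Mast cells and basophils also carry *Tph1*, and of 9 markers of these cells *Mcpt4*, *Fcer1a* and *Ms4a2* were not listed. The sum of the 6 listed markers was 1128 to 1416 normalized counts in vehicle and 241 to 588 in melatonin samples, most of it *Tpsab1*, a tryptase gene, at 1086 to 1327 against 165 to 546 normalized counts. *Hdc*, the histidine decarboxylase gene, had 1.87, 6.56 and 13.6 normalized counts in vehicle replicates 1, 2 and 3 and 73.8, 5.46 and 13.1 in melatonin replicates 1, 2 and 3. In melatonin replicate 1, where *Tph1* was highest, these markers went both ways. There *Hdc* was at its highest of the 6 samples and *Tpsab1* at its lowest, 165 normalized counts. *Cpa3*, which encodes mast cell carboxypeptidase, was at 0.934 there and at 2.81 to 34.2 in the other samples. Of the protease genes, *Tpsb2* was at 0 there against 1.87 to 47.2, and *Cma1* at 0 there against 0 to 20.5. The sort gate left out cells with FcεRIα, a surface protein of mast cells and basophils. The part of such cells in the *Tph1* values was not tested.

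*Chat* encodes choline acetyltransferase, the enzyme that makes acetylcholine (ENSMUSG00000021919, chr14:32129369-32187946, minus strand). It was not listed, and no level or fold change is given. No listed gene had fewer than 10.0 estimated counts in the 6 samples together, and a transcript rarer than that could have been present. *Slc18a3*, the vesicular acetylcholine transporter gene that lies within the *Chat* locus, was not listed either.

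**Figure D2:**
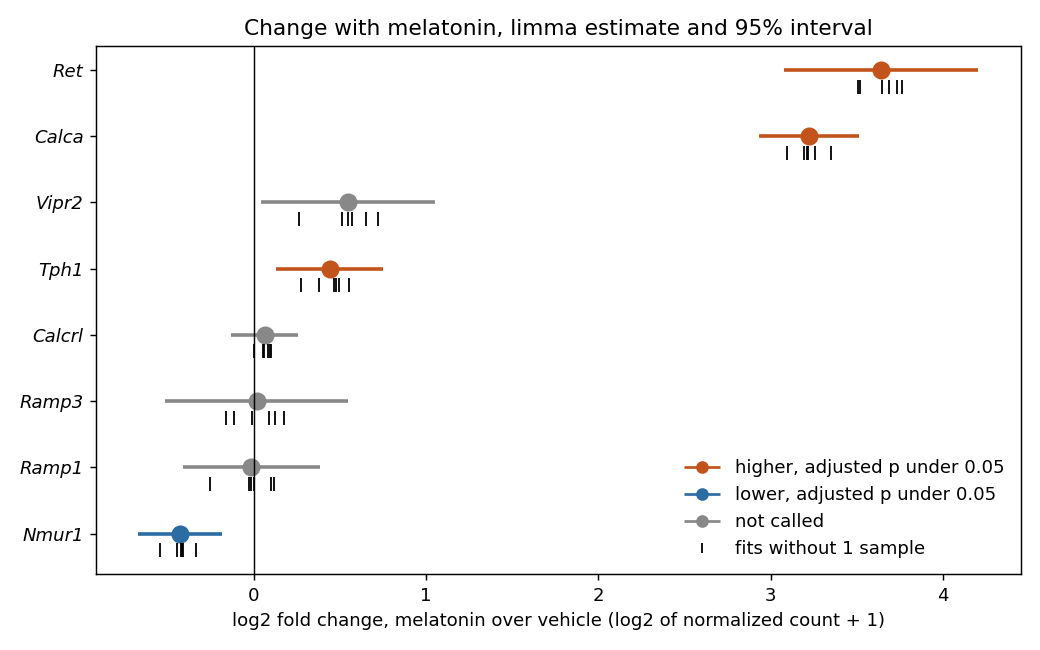
Log2 fold change of melatonin over vehicle (horizontal axis) for the 8 listed members, with the limma estimate as a point, its 95% interval as a line, and the 6 estimates without 1 sample as ticks. *Ret* at 3.64 and *Calca* at 3.22 lie far from the other 6 members, whose estimates run from -0.43 to 0.55, and the ticks of *Ramp1* and *Ramp3* fall on both sides of 0.

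Compared per kilobase of transcript, the order of the members in vehicle samples was *Ramp1* at 2903 ± 66.9, *Nmur1* at 2554 ± 45.7, *Tph1* at 669.8 ± 49.4, *Calca* at 299 ± 12.7, *Calcrl* at 277 ± 5.95, *Ramp3* at 69.8 ± 14.6, *Vipr2* at 60.6 ± 2.46 and *Ret* at 2.21 ± 0.405 normalized counts per kilobase (SD, n = 3). Neighbours in this order did not overlap, except *Ramp3* and *Vipr2*. In melatonin samples *Ramp1* was at 2965 ± 921 and *Calca* at 2819 ± 494 normalized counts per kilobase, and these genes overlapped. They were followed by *Nmur1* at 1913 ± 286 and *Tph1* at 921 ± 193, then *Calcrl* at 290.0 ± 23.5. *Vipr2* at 92.2 ± 33.8 and *Ramp3* at 70.8 ± 16.2 again overlapped, and *Ret* was at 29.5 ± 5.10. *Calca* moved from the fourth to the second place, from near *Calcrl* to near *Ramp1*.

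**Figure D3:**
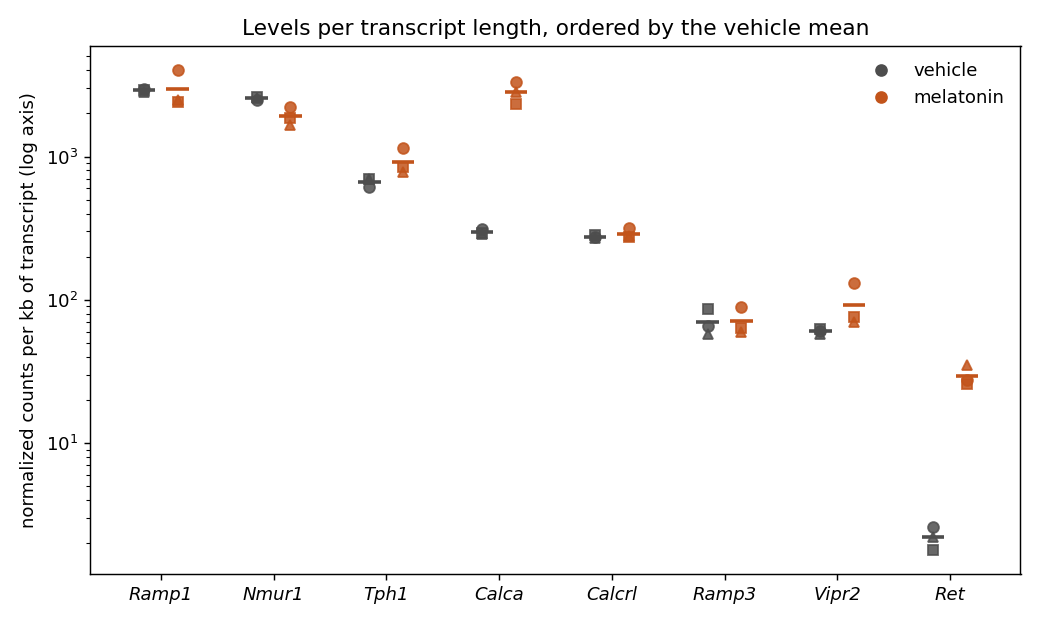
Normalized counts per kilobase of canonical transcript (vertical log axis) of the 8 listed members, ordered by the vehicle mean, with 1 point per sample, shapes for replicates 1 (circle), 2 (square) and 3 (triangle), and lines for the group means. *Calca* at 299 in vehicle lies beside *Calcrl* at 277, and in melatonin at 2819 lies beside *Ramp1* at 2965.

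Most members shared a pattern among the melatonin samples. In 7 of the 8, melatonin replicate 1 had the highest melatonin value, as it did in 37.7% of all tested genes. In 6 of the 8 it had the highest of all 6 values, against 25.7% of tested genes. Its ratio to the mean of melatonin replicates 2 and 3 was 1.80 for *Vipr2*, 1.66 for *Ramp1*, 1.45 for *Ramp3*, 1.41 for *Tph1*, 1.29 for *Calca*, 1.27 for *Nmur1* and 1.15 for *Calcrl*. For *Ret* it was 0.898. Over genes averaging 100 or more normalized counts the median of this ratio was 1.01. Of these genes, 1.45% had a higher ratio than *Vipr2* and 2.20% a higher one than *Ramp1*. The share was 5.01% for *Ramp3*, 6.12% for *Tph1*, 10.9% for *Calca* and 12.3% for *Nmur1*. For *Calcrl* and *Ret* it was 24.2% and 71.8%, so the ratio was not unusual in every member. This sample was also the only melatonin sample with Y-linked transcripts, and the part of donor sex or of that library in these values was not tested. In vehicle samples the coefficient of variation was 1.79% for *Nmur1*, 2.15% for *Calcrl*, 2.30% for *Ramp1*, 4.05% for *Vipr2*, 4.24% for *Calca* and 7.37% for *Tph1*. In melatonin samples these were 14.97%, 8.09%, 31.1%, 36.6%, 17.5% and 20.9%. For *Ramp3* and *Ret*, the members with the lowest vehicle counts, it was 21.0% and 18.3% in vehicle and 22.8% and 17.3% in melatonin samples.

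**Figure D4:**
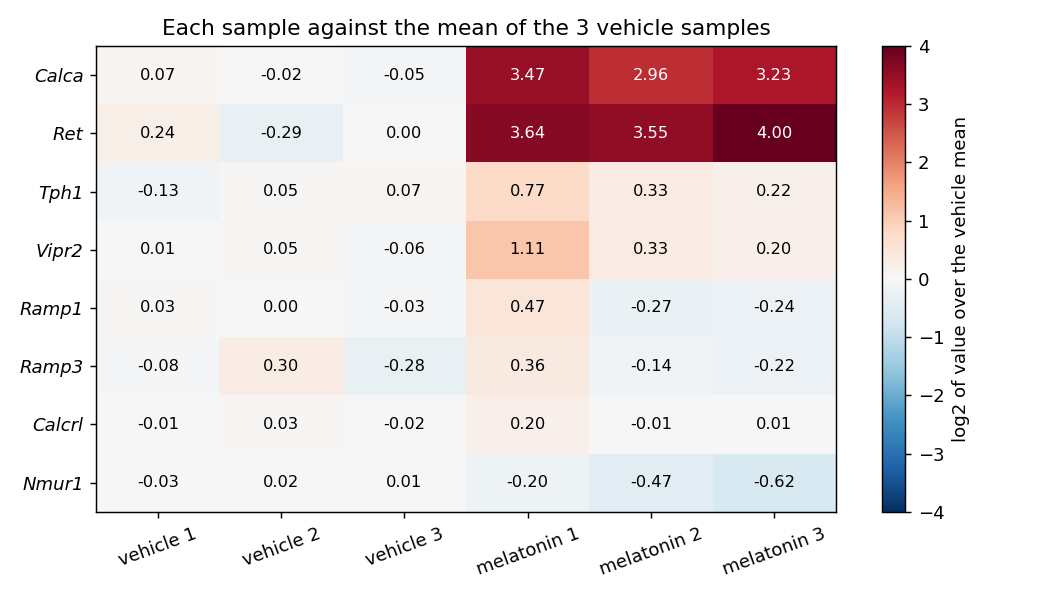
Log2 of each sample's normalized count over the mean of the 3 vehicle samples, for the 8 listed members (rows) and the 6 samples (columns), coloured from -4 (blue) to 4 (red). *Calca* and *Ret* are high in all melatonin columns, *Nmur1* is below 0 in all of them, and *Ramp1* and *Ramp3* are above 0 in melatonin replicate 1 and below 0 in melatonin replicates 2 and 3.

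The genes most like each member over the 6 samples were found among the 9990 genes averaging 100 or more normalized counts, by the root mean square difference of centred log2 values. For *Ret* the nearest were *Macroh2a1* at 0.192, *Calca* at 0.302 and *Tspoap1* at 0.490 log2 units, so a member of the same gene group stood in second place. For *Calca* they were *Stxbp6* at 0.229, *Cdh2* at 0.236 and *Macroh2a1* at 0.252. For *Ramp1* the nearest was *Shisa5* at 0.0423, with 18695 normalized counts in melatonin replicate 1 and 10760 and 10535 in melatonin replicates 2 and 3. For *Vipr2* it was *Rnf128* at 0.0413, with 13712 normalized counts in melatonin replicate 1 and 8577 and 7695 in melatonin replicates 2 and 3. The nearest genes were *Tmc8* at 0.0336 for *Nmur1*, *Cobll1* at 0.0341 for *Tph1*, *Gss* at 0.0181 for *Calcrl* and *Afmid* at 0.104 for *Ramp3*. These distances describe 6 values per gene.

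The wider set of ligands, receptors, enzymes and coupling proteins held 188 further genes in 8 lists. Of these, 83 were listed and 70 tested, with 20 called higher, 15 lower and 35 not called. Markers of other cell types also moved between the groups. Summed T cell markers had 4653 to 5065 normalized counts in vehicle and 1736 to 2577 in melatonin samples, with *Cd3e* and the other 4 listed ones called lower, and *Cd4*, *Cd8a* and *Cd5* not listed. Summed macrophage and granulocyte markers had 1051 to 1273 against 254 to 668, with 4 of 7 listed called lower. Of 7 listed epithelial markers 4 were called lower, among them *Sftpc* at 122 to 389 against 3.02 to 6.54 normalized counts and *Scgb1a1* at 21.5 to 1045 against 0 to 1.01, and *Epcam* was called higher. The part of such cells in the values of the wider genes was not tested. The share of wider genes called was 50%, near the 49.2% of all genes, and the median log2 fold change was 0.10. In 4 of the 70 genes the filter was passed only through melatonin samples and in 4 only through vehicle samples, so the filter favoured a difference in these genes. They are *Adm*, *Nrtn*, *Gfra1* and *Cpe*, and *Ramp2*, *Ednrb*, *Adra1b* and *Adcy6*. With melatonin replicate 1 as the only melatonin sample, the calls of *Adm*, *Ramp2*, *Nrtn*, *Slc44a1*, *Gch1*, *Maoa*, *Maob* and *Grk5* were lost.

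Among the ligands and co-receptors of RET, 9 genes were named, 4 listed and 3 tested. All 3 were called higher, but *Nrtn* and *Gfra1* passed the filter only through melatonin samples, so the filter favoured this direction and the count is no result about the family. *Gfra4*, a GFRα co-receptor gene, had 2.80, 4.68 and 15.7 normalized counts in vehicle replicates 1, 2 and 3 and 44.8, 52.4 and 31.2 in melatonin replicates 1, 2 and 3 (log2 fold change 2.59, adjusted p = 0.0048). *Gfra1*, the co-receptor gene for GDNF, was at 0 in all vehicle samples and at 13.1, 14.2 and 2.01 in melatonin samples, at least 3.10-fold higher when set against the floor of 3 counts per library. Its call was lost without melatonin replicate 1 and without melatonin replicate 2. *Nrtn*, which encodes the ligand neurturin, had 3.15 to 7.50 against 15.1 to 22.4 normalized counts (1.51, adjusted p = 0.022) and was not called without melatonin replicate 1 or without vehicle replicate 3. These 3 tested genes were at low levels, as was *Ret*. The other listed gene, the GFRα co-receptor gene *Gfra2*, did not pass the filter and was not tested. It went the other way, at 2.80, 9.37 and 4.20 normalized counts in vehicle replicates 1, 2 and 3. In melatonin replicates 1, 2 and 3 it had 1.87, 2.19 and 0, all below the vehicle values.

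Of the other calcitonin family genes, 3 of 7 were listed. *Adm*, which encodes adrenomedullin, was at the floor in vehicle samples, at 2.80, 0.937 and 0 normalized counts, and at 5.603, 9.83 and 20.1 in melatonin samples, and was called higher (adjusted p = 0.018). It was not called without melatonin replicate 2 or without melatonin replicate 3. *Ramp2*, whose product pairs with CALCRL to bind adrenomedullin, had 13.96 to 32.8 normalized counts in vehicle and 3.28 to 7.41 in melatonin samples (log2 fold change -1.69, adjusted p = 0.019). It was not called without melatonin replicate 2 or without vehicle replicate 2. *Crcp*, which encodes a protein tied to CGRP receptor signalling, had 1036 to 1345 normalized counts over all samples and was not called (-0.18).

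Other neuropeptide genes were sparse, with 6 of 23 ligands and 4 of 35 receptors listed. Among ligands, *Penk*, which encodes the enkephalin precursor, fell from 62.5, 116 and 126 to 7.47, 10.9 and 31.2 normalized counts (log2 fold change -2.73, adjusted p = 0.0023). *Grp*, which encodes gastrin-releasing peptide, had 14.1 to 21.0 normalized counts in vehicle and 2.80 to 10.9 in melatonin samples (-1.76, adjusted p = 0.024). Its call held in 2 of the 6 fits without 1 sample, namely those without melatonin replicate 2 or without vehicle replicate 2. *Nmb*, the neuromedin B gene, had 95.5 to 105 against 52.4 to 92.5 normalized counts and was not called (-0.55, adjusted p = 0.078). The receptor genes *Mc5r* and *Ednrb* had at most 20.5 normalized counts in a sample and were not called. *Nmu* and *Vip*, the ligand genes for NMUR1 and VPAC2, were not listed.

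In the wider list of genes for monoamine synthesis, breakdown, transport and receptors, changes went in both directions. Of 17 tested, 5 were called higher and 4 lower, shares near the 24.5% and 24.7% of all tested genes. *Ddc*, which encodes the decarboxylase that completes serotonin synthesis, fell from 46.7, 45.0 and 39.9 to 10.3, 7.65 and 4.02 normalized counts (log2 fold change -2.51, adjusted p = 0.00097). *Pts*, which acts in the synthesis of tetrahydrobiopterin, the cofactor of TPH1, rose from 409, 416 and 336 to 860.0, 885 and 840.4 normalized counts (1.16, adjusted p = 0.00011). Of the monoamine oxidase genes, *Maob* rose from between 8.39 and 21.5 to between 33.6 and 37.2 normalized counts (1.41, adjusted p = 0.014), and *Maoa* fell from between 59.8 and 84.9 to between 32.8 and 39.2 (-0.97, adjusted p = 0.0079).

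*Adra1b*, which encodes an α1-adrenergic receptor, had 9.44 to 28.9 normalized counts in vehicle samples and was at the floor in melatonin samples, at 0, 3.28 and 2.01 (called lower, adjusted p = 0.0086). The most abundant genes of this list were those of the amino acid transporter that carries tryptophan. *Slc3a2* rose from between 10285 and 10853 to between 14741 and 16455 normalized counts (0.56, adjusted p = 0.00052), and *Slc7a5*, at 10657 to 14818, was not called (-0.15). Of the acetylcholine genes, 2 of 6 tested were called higher, beside 24.5% of all tested genes. *Chka*, which encodes choline kinase, had 291 to 307 normalized counts in vehicle and 465 to 559 in melatonin samples (0.78, adjusted p = 0.00067), and was called in each of the 6 fits without 1 sample. The choline transporter gene *Slc44a1* had 547 to 1199 normalized counts in vehicle and 1152 to 1664 in melatonin samples (0.70, adjusted p = 0.047), and this call held in 2 of 6 fits without 1 sample, those without melatonin replicate 3 or without vehicle replicate 3. *Slc44a2* was not called, at 2731 to 4061 normalized counts.

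**Figure D5:**
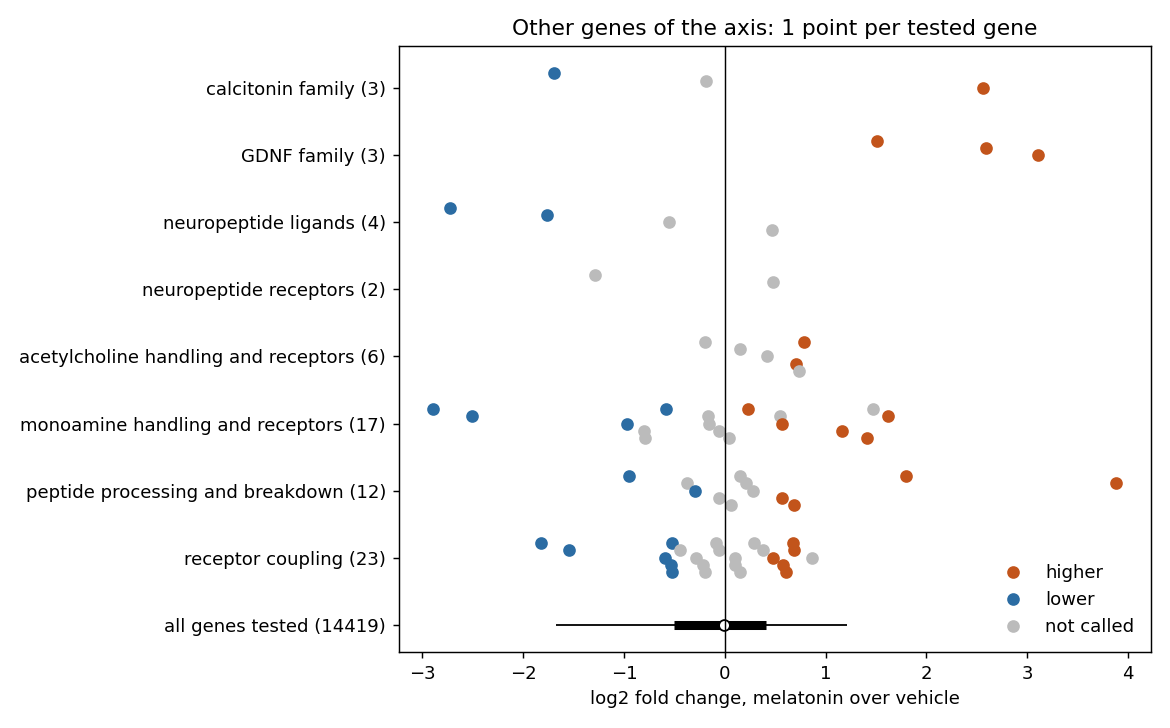
Log2 fold change of melatonin over vehicle (horizontal axis) for the 70 tested genes of the 8 wider lists, 1 point per gene, with numbers of tested genes in brackets and points offset vertically for legibility. The bottom line gives all 14419 tested genes, with a thick line from the first to the third quartile (-0.50 to 0.41), a thin line from the 5th to the 95th percentile (-1.67 to 1.22) and a circle at the median.

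Enzymes that mature or degrade peptides were called higher in 4 of 12 and lower in 2 of 12 tested genes, so that the share called was 50%, beside 49.2% of all genes. *Cpe*, which encodes the carboxypeptidase that trims peptide precursors including that of CGRP, went from 2.80, 3.75 and 3.15 to 49.5, 69.9 and 66.3 normalized counts (log2 fold change 3.88, adjusted p = 8.55e-05). As its vehicle values are near the floor of 3 counts, this fold change depends on the pseudocount. *Cpm*, a membrane carboxypeptidase gene, rose from between 58.8 and 75.5 to between 216 and 249 normalized counts (1.80), and *Ide*, an insulin-degrading enzyme gene, rose from between 3789 and 3817 to between 5760 and 6418 (0.69). *Furin*, a proprotein convertase gene, fell from between 30727 and 36507 to between 13697 and 19253 normalized counts (-0.95). *Pcsk1*, which encodes the convertase of dense-core granules, had 2801 to 3622 normalized counts and was not called (0.06), and *Pam*, whose product amidates CGRP, had 10.3 to 22.5 and was not called (-0.37).

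Of 23 genes that couple these receptors to their effectors, all were tested, with 5 called higher and 6 lower, a share of 47.8% beside 49.2% of all genes. Those called higher were *Gnaq*, *Adcy3*, *Grk5*, *Plcb3* and *Frs2*, with log2 fold changes from 0.48 to 0.68. Of the fits without 1 sample, *Grk5* was called in 1 of 6, that without melatonin replicate 3, and *Adcy3* in 4 of 6, the exceptions for *Adcy3* being those without melatonin replicate 2 and without vehicle replicate 1, and *Adcy3* was not called without the trend or with the length correction. *Gnas*, which encodes the stimulatory G protein subunit used by CALCRL and VPAC2, had 10046 to 17417 normalized counts in vehicle and 16082 to 18252 in melatonin samples and was not called (0.29). *Gnai2*, an inhibitory subunit gene, fell from between 17033 and 17640 to between 10594 and 12189 (-0.59, adjusted p = 0.00056). *Rgs1*, which encodes a regulator that switches off G protein signals, fell from 11291, 10318 and 9529 to 3078, 3657 and 3939 normalized counts (-1.55, adjusted p = 3.0e-05). *Adcy6*, an adenylyl cyclase gene, had 15.9 to 30.8 normalized counts in vehicle and 4.02 to 6.54 in melatonin samples (-1.82, adjusted p = 0.0071).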

How the data were processed

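Bulk RNA sequencing (SMARTer Ultra Low Input cDNA, NextSeq) was done on 3 vehicle and 3 melatonin samples of sorted lung aILC2s. The authors trimmed reads in Partek Flow 12.9.0, aligned them with STAR 2.7.8a to mm39, assigned them to genes of Gencode M33 by Partek's E/M algorithm and normalized counts by the median ratio method of DESeq2. The unit of the deposited table is therefore a normalized signal, in which each estimated count has been divided by its sample's size factor, and not a raw count. At a tolerance of 0.01, 64.7% of non-zero values were whole multiples of the value of 1 read, so reads were not recovered and limma took the place of a count test. The algorithm divides shared reads among features, and only genes up to identifier number 109618 are in the table; later ones were not analysed here. The methods give 10 pg of RNA per sample and the labels 10 ng.

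Genes with a normalized count of at least 10 in at least 1 sample were tested with limma 3.58.1 in R 4.3.3 (trend) on log2 values with a pseudocount of 1 added to each normalized count, modelling treatment alone, with Benjamini-Hochberg adjustment over 14419 genes at 0.05. Fold changes are on this scale, which understates the change of low genes. Single ratios were compared by a two-sided exact permutation test. Levels per kilobase used the Ensembl canonical transcript of Gencode M39 on GRCm39, which also gave the positions of genes. An annotated gene overlapped *Calca*, *Calcrl*, *Ramp3*, *Vipr2* and *Chat*, and none of those was in the table. The 20 alternative fits were 2 other pseudocounts, 2 other filters, 3 scalings, limma without trend, with sample weights or with voom, a replicate block, corrections for length and GC content, a fit of the libraries with Y-linked transcripts and 6 fits without 1 sample. 2 stricter thresholds were also tried. All 9 members are named. From the wider lists, called genes that changed by 1 log2 unit or more and the 2 most abundant genes of each list are named. Also named are the genes with the pattern nearest to a member. *Maoa*, *Pcsk1*, *Pam*, *Gch1*, *Gnaq*, *Adcy3*, *Grk5*, *Plcb3*, *Frs2*, *Chka*, *Hdc* and *Gfra2* were added after their values were seen. Members and lists were chosen with earlier results of these data known. Values of a few genes of the lists are not reported here. The script was tested on simulated data. Figures were made with matplotlib 3.10.9.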

Additional observations from a re-analysis of the deposited data

How the results depend on the processing

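*Calca* (log2 fold change 3.10 to 3.47) and *Ret* (2.98 to 3.84) were called higher in every alternative fit in which they were tested. *Ret* fell outside the set averaging 100 or more. *Nmur1* (-0.54 to -0.20) lost its call, among the fits, only with the correction for transcript length. *Tph1* (0.28 to 0.77) also lost its call without the trend (0.44, adjusted p = 0.079), with the GC correction (0.37, adjusted p = 0.067), with the length correction (0.31, adjusted p = 0.066) and with the replicate block (0.44, adjusted p = 0.052). Deviations of same-numbered samples from their group means correlated at -0.11, 0.14 and -0.19, and those of other numbers at -0.19 to 0.31. With 3 samples per group these values cannot decide whether samples were paired by replicate number. With the number as a block, 3160 genes were called higher and 3278 lower, against 3529 and 3565, and the block changed no other member's call. Estimates near 0 changed sign: *Calcrl* to -0.050 (GC) and -0.077 (length), *Ramp1* to 0.11 (GC), 0.10 (quantile), 0.026 (same total) and 0.47 (libraries with Y-linked transcripts), and *Ramp3* to -0.14 (sample weights) and -0.031 (upper quartile). Without 1 sample, *Ramp1* ran from -0.25 to 0.12 and *Ramp3* from -0.16 to 0.18. Members called higher numbered 5 in the libraries with Y-linked transcripts, and 2 to 4 without 1 sample. Members called lower numbered 0 with the length correction, at an adjusted p under 0.01 or with a log2 fold change of at least 1, and 1 to 2 without 1 sample. Wider genes called higher numbered 13 with a mean of at least 100, 12 under 0.01 and 9 with a log2 fold change of at least 1, and 14 to 21 without 1 sample. Those called lower numbered 8 with a mean of at least 100 and 7 with a log2 fold change of at least 1, and 13 to 18 without 1 sample. Over all genes, 2188 were higher and 2267 lower under 0.01, 866 and 1392 with a log2 fold change of at least 1, and 2739 to 3449 higher and 2711 to 3621 lower without 1 sample. The cause of these changes was not tested. Depth limits *Ret* in vehicle samples (11 to 16 estimated counts) and the rare wider genes.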
